A study of Rattus norvegicus with 9 samples.

Results

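The genes described here encode the subunits of the mitochondrial respiratory chain and of ATP synthase, with 3 assembly factors of complex I. They were chosen by name: every gene whose array symbol began with Nduf, Uqcr, Atp5 or Cox with a number between 4 and 8, or was Sdha, Sdhb, Sdhc or Sdhd, was taken, and Cox8b was left out. That gave 61 genes, measured by 65 probes, of 9653 genes named on the array. Complex I had 19 subunit genes and the 3 assembly factors, complex II had 4, complex III 8, complex IV 12 and ATP synthase, also called complex V, 15. These groups follow the symbol and not known membership of a complex. Ndufa4 and its relative Ndufa4l2 are thus counted in complex I, Cox7a2l in complex IV and the inhibitor gene Atp5if1 in ATP synthase. All 61 were measured on every array, and no filter on low values was applied.

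The series set offspring of diabetic mothers (DMO) against offspring of control mothers (CMO). Thoracic aorta, the large artery that leaves the heart, was taken from each rat, and total RNA of 1 DMO and 1 CMO animal was put on one Agilent array, labelled with different dyes. The 9 arrays held 5 pairs of animals, named by the DMO number: DMO 193 was paired with CMO 189, 194 with 190, 197 with 191, 199 with 192 and 220 with 216. Pairs 193, 197, 199 and 220 were measured on 2 arrays with the dyes exchanged, and pair 194 on 1 array with the DMO animal on Cy3; of the 10 samples in the design text, 1 was not analysed here. The labels name no strain, sex, age, litter or cause of the mothers' diabetes, so how far animals of 1 group are independent is not known, and p-values measure the spread between these pairs. A log ratio holds no level, so the labelled tissue could not be checked against its markers.

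Each value is a deposited log ratio of the 2 animals of a pair, taken as log2 although its base is not stated. Which animal a positive value favours is not stated either, so signs are given as deposited and no group is called higher. The arrays with exchanged dyes were read as if the submitters had brought them to one direction, and a pair's value is the mean of its arrays. Where 2 array values are given for a pair, the array with the DMO animal on Cy3 comes first. Array means were all 0, and array medians lay between -0.057 and 0.088. Gene names rest on a renumbering of the deposited rows that was chosen with these data in view. The 4 genes of the set with 2 probes gave correlations between their probes of 0.93 to 0.98 over the 9 arrays with it, and of -0.68 to 0.66 with the numbers as deposited. The check over the whole array was weaker, using pairs of probes of 1 gene that both passed 1 in size on some array. Their median correlation was 0.50 over 153 such pairs with the renumbering, and 0.15 over 184 with the numbers as deposited.

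The respiratory chain sits in the inner mitochondrial membrane. Complex I takes electrons from NADH and complex II from succinate, ubiquinone carries them to complex III, cytochrome c carries them on to complex IV, and oxygen receives them there. Complexes I, III and IV pump protons, and ATP synthase makes ATP as the protons flow back. Apart from the few subunits encoded in mitochondrial DNA, the genes lie in the nucleus, and nuclear respiratory factor 1 (NRF1), GA-binding protein (GABP), YY1 and the oestrogen-related receptors (ERR) are known to act at many of their promoters. Smooth muscle of the artery wall holds few mitochondria beside brown fat, which surrounds the thoracic aorta in rodents and is packed with them.

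Promoters of the genes with the widest and narrowest spread over the pairs are shown first, because most subunit genes shared a sign in pairs 193, 194, 197 and 199. Each is the 250 bases before and 50 bases after the gene's start in RefSeq's GRCr8 annotation, 5′ to 3′ on the gene's strand, with capitals marking matches to 4 motifs searched on both strands. The motifs were CCGGAAG for GABP, AAGATGGC for YY1, AAGGTCA for ERR and the near-palindromic NRF1 motif, whose letters the capitals in the Sdha window show, with any base allowed where the matches differ. A window was found for 54 of the 61 genes. Among genes with a window, the one with the widest range over the 5 pairs was taken in each complex. The 2 subunit genes with the narrowest range followed, also among those with a window. Uqcrb, with a range of 0.38 against 0.39 for Cox6a2, had none. Ndufs8 of complex I lies at chr1:210573649-210573948 on the minus strand, Sdha of complex II at chr1:30764303-30764602 on the plus strand, Uqcrfs1 of complex III at chr17:34186352-34186651 on the plus strand, Cox7b of complex IV at chrX:75148786-75149085 on the plus strand and Atp5mg of ATP synthase at chr8:54130358-54130657 on the minus strand. The narrow pair are Cox6b2 at chr1:78122621-78122920 on the plus strand and Cox6a2 at chr1:192219667-192219966 on the minus strand, forms of complex IV subunits known from testis and from heart and skeletal muscle.
Ndufs8: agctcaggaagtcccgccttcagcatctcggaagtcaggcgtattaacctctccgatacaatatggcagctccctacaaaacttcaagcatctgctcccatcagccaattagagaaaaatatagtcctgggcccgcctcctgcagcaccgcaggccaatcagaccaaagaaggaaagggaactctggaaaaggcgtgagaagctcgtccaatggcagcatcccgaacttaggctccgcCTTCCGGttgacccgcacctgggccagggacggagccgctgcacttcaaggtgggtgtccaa
Sdha: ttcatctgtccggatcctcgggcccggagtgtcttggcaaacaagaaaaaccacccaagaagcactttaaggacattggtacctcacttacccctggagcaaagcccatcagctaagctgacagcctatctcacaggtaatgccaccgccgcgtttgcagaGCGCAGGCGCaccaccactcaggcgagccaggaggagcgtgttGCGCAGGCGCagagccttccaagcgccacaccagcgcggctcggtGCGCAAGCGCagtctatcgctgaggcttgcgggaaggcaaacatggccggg
Uqcrfs1: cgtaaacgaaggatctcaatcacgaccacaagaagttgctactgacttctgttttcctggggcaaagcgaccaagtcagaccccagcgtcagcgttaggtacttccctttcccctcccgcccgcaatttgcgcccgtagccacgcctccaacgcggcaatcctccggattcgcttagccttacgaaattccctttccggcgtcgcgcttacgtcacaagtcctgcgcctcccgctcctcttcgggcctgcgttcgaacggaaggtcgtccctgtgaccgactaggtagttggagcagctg
Cox7b: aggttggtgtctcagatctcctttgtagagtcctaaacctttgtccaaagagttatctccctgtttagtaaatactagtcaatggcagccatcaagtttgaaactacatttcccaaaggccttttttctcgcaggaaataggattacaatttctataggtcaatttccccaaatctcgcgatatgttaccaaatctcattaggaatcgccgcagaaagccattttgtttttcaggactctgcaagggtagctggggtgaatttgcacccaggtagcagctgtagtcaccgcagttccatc
Atp5mg: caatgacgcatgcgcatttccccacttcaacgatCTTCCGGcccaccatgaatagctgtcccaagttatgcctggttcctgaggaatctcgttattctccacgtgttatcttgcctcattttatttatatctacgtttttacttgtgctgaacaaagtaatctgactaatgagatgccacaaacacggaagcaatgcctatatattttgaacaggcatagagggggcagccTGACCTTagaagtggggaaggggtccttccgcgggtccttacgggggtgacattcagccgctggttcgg
Cox6b2: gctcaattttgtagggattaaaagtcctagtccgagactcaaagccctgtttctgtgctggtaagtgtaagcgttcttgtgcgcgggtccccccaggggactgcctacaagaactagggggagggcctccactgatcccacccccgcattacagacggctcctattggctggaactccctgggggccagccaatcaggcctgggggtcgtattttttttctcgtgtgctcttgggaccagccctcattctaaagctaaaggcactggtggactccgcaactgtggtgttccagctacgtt
Cox6a2: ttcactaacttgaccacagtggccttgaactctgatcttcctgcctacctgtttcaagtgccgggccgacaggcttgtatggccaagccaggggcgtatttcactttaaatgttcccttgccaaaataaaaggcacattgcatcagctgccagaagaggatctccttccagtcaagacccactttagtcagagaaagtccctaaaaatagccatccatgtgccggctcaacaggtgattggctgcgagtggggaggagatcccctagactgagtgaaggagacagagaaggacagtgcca

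Sdha held 3 matches to the NRF1 motif, the last starting at the base just before the annotated start. Ndufs8 held 1 match to the GABP motif, Atp5mg held 1 to GABP and 1 to ERR, and the other 4 windows held none of the 4 motifs. Of the 51 subunit genes with a window, 30 held at least 1 of the motifs (58.8%), against 21.2% of the 21842 windows of protein-coding genes in the same table. By motif the shares were 31.4% against 10.7% for GABP, 21.6% against 5.66% for NRF1, 17.6% against 3.68% for YY1 and 17.6% against 3.78% for ERR. A match is a run of letters and not a shown binding site.

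Most subunit genes of each of the 5 complexes shared a sign in pairs 193, 197 and 199, and the sign differed between pairs. In pair 194 most did in complexes I, II, III and V, while the 12 genes of complex IV were 6 positive and 6 negative. In pair 220 every complex had genes of both signs. The median of the 58 subunit genes was -0.50, 0.31, 0.53, 0.85 and -0.037 in pairs 193, 194, 197, 199 and 220. The median of all 19478 features lay between -0.041 and 0.076 in these pairs. Pair 193 was thus on the negative side, pairs 194, 197 and 199 on the positive side, and pair 220 near 0. In bulk tissue, fewer cells rich in mitochondria and less RNA per cell cannot be told apart.

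A gene was counted in a pair where the pair's value was over 0.5 in size and both arrays had that sign. In pair 193, 29 of 58 subunit genes were counted on the negative side, against 1.8% of all features, and 0 on the positive side (1.49% of features). In pair 199 it was 42 on the positive side (5.31%) and 0 on the negative (3.17%). Pair 197 had 30 positive (4.6%) and 1 negative (9.9%), Atp5f1e, while negative features outnumbered positive ones over the whole array. Pair 194, with its single array, had 15 positive (7.82%) and 0 negative (5.48%). Pair 220 had 0 positive (1.19%) and 2 negative (3.3%), close to the background.

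**Figure D1:**
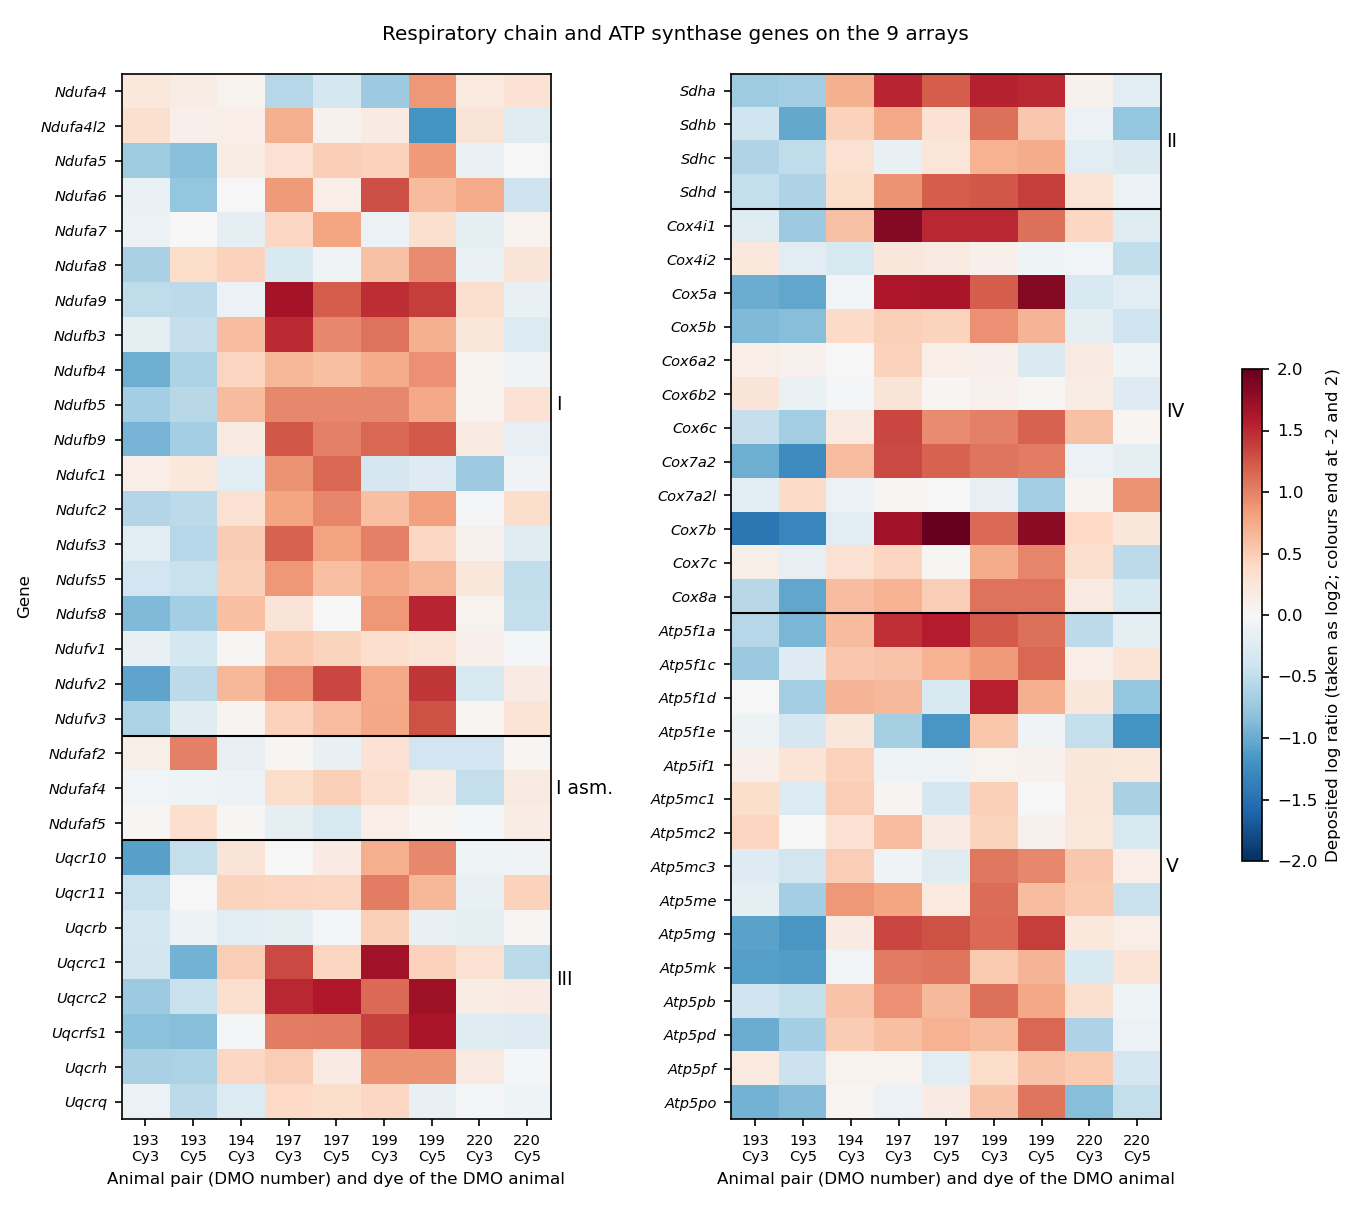
Heat map of the deposited log ratio (taken as log2, red positive and blue negative) of the 61 genes, in rows grouped by complex, on the 9 arrays, in columns by animal pair and by the dye of the DMO animal. Most rows are blue in pair 193, red in pairs 197 and 199 and pale in pair 220, while Ndufa4, Cox4i2, Cox6a2, Cox6b2, Cox7a2l and Atp5if1 do not follow that order.

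The 2 arrays of a pair gave the subunit genes alike in pairs 193, 197 and 199. Opposite signs on the 2 arrays were held by 10, 8, 8 and 33 of 58 subunit genes in pairs 193, 197, 199 and 220. Over all features the shares with opposite signs were 56.1%, 31.6%, 55.9% and 53.5% in the same pairs. A value of exactly 0 was counted as differing in sign, as for Atp5f1d in pair 193 (0 and -0.69). No gene of the 61 had a sign that followed the dye of the DMO animal on all 9 arrays, as 2.87% of features had. Across the 58 genes the correlation between the 2 arrays was 0.64, 0.86, 0.62 and 0.015, against 0.15, 0.67, -0.18 and 0.072 across all probes. Genes share libraries and are not independent, so these are descriptions without a test. In pair 199 the arrays as a whole ran slightly against each other, and the subunit genes did not.

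For a subunit gene, the SD between the 4 pairs with exchanged dyes had a median of 0.65, and the root mean square of 0.5 of the difference between its 2 arrays had a median of 0.17. Over all features these were 0.20 and 0.19. The spread between pairs exceeded the difference between arrays for 51 of 58 subunit genes and for 50.9% of features. Both arrays had 1 sign in all 4 of these pairs for 17 of 58 subunit genes, against 9.77% of features.

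**Figure D2:**
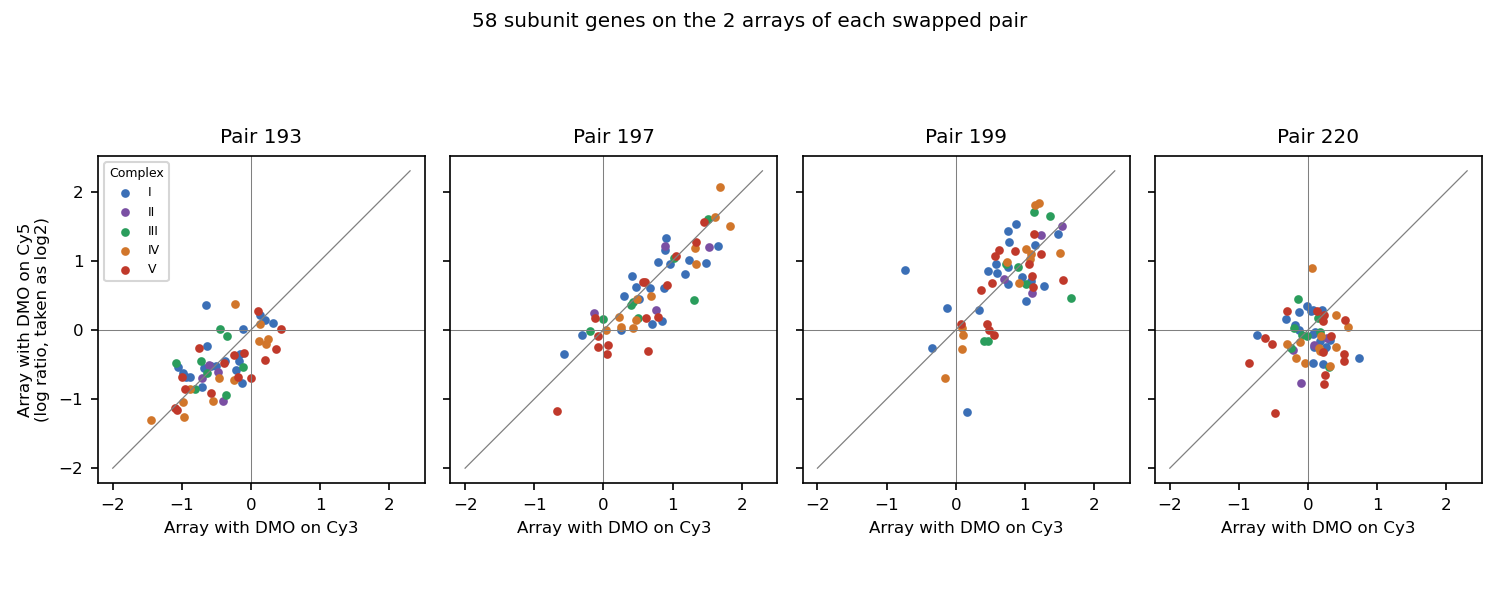
Each point is 1 of the 58 subunit genes, with its log ratio (taken as log2) on the array with the DMO animal on Cy3 across and on the array with it on Cy5 upward, in the 4 pairs measured on both; colours mark the complex and the diagonal marks equal values. Most points lie near the diagonal, below 0 in pair 193 and above 0 in pairs 197 and 199, and they form a cloud around 0 in pair 220.

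The question the design asks is whether DMO and CMO aortas differ, and for these genes the 5 pairs did not share a direction. None of the 61 genes passed in limma, fitted over all 19478 features with the 5 pairs as replicates (Benjamini-Hochberg adjusted p from 0.926 to 0.997), and no feature of the array did (0%). An unadjusted p under 0.05 was reached by 1 of the 61, Atp5mc2 (0.23 ± 0.17, mean ± SD, n = 5 pairs, limma adjusted p = 0.926), against 2.23% of features on its positive side and 2.54% on the negative. The arrays of Atp5mc2 were at 0.43 and 0.010 for pair 193, 0.62 and 0.17 for 197, and 0.45 and 0.090 for 199. Those of pair 220 were at 0.22 and -0.32, and the single array of pair 194 was at 0.31. Its Cy3 array (DMO on Cy3) was thus the higher one in all 4 exchanged pairs. Without moderation of the variances, 738 features had an unadjusted p under 0.05, against 929 with it. No gene of the set had 1 sign in all 5 pairs, which 3.34% of features had on the positive and 2.82% on the negative side.

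The mean over the pairs was positive for 53 of the 58 subunit genes, against 9991 of all 19478 features. The median of these means was 0.24 for the subunit genes, against 0.0037 over all features. That median was 0.097 without pair 199 and 0.43 without pair 193. Read instead as if the deposited values had not been brought to one direction, with Cy5 arrays reversed in sign, it was 0.078, since the 2 arrays of pairs 193, 197 and 199 then largely cancelled, and 40 of 58 means were positive. In that reading 22 of the 61 means changed sign, so means and ranges below, and the choice of promoters above, hold for the values as first read. Leaving out 1 pair changed the sign of 21 of the 61 means, and it changed the sign or moved the value by over 1.5 times for 60. The lowest and highest were 0.22 and 0.71 for Ndufa9, 0.32 and 0.88 for Sdha, 0.33 and 0.86 for Uqcrc2, 0.37 and 0.91 for Cox4i1, 0.10 and 0.69 for Cox7a2 and 0.17 and 0.74 for Atp5f1a. The highest of these 6 were without pair 193 and the lowest without pair 197 or 199. Negative in pair 193 and positive in both pairs 197 and 199 were 43 of 58 subunit genes, an order chosen after its values were seen, against 12.5% of features.

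**Figure D3:**
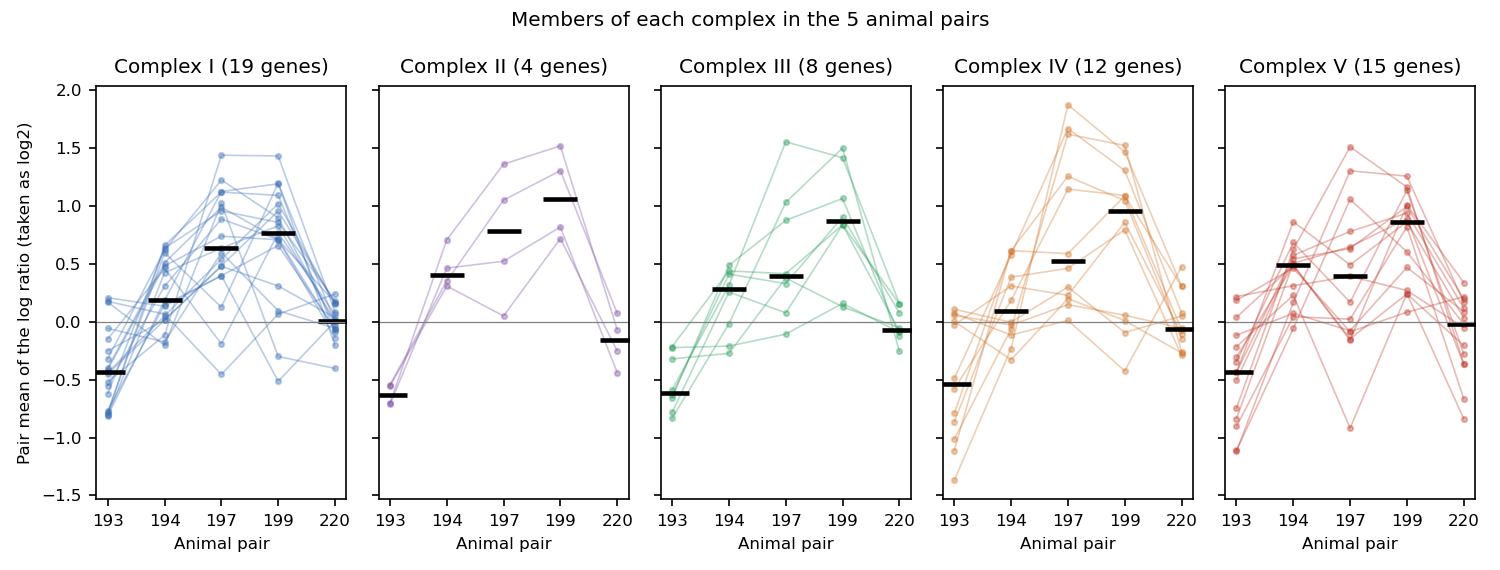
Pair means of the log ratio (taken as log2) in the 5 animal pairs for complexes I to V, with a thin line and points for each gene and a black bar for the median of the complex; the lines only join values of 1 gene, since the pairs have no order. All 5 medians lie below 0 in pair 193, above 0 in pairs 194, 197 and 199 and near 0 in pair 220. That of complex IV is only 0.091 in pair 194, where 6 of its 12 genes are negative.

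Complex I, NADH dehydrogenase, had medians of -0.44, 0.19, 0.64, 0.77 and 0.0047 in pairs 193, 194, 197, 199 and 220. Of its 19 subunit genes, 8 were counted negative in pair 193, and 5, 12 and 14 positive in pairs 194, 197 and 199, with none in pair 220. Ndufa9, an accessory subunit of the arm that reaches into the matrix, was at -0.51 and -0.53 for pair 193, -0.12 for 194, 1.66 and 1.22 for 197, 1.48 and 1.39 for 199, and 0.32 and -0.15 for 220. Its values were positive on all 4 arrays of pairs 197 and 199 and negative on both of pair 193, and its mean was 0.46 ± 0.91 (n = 5, limma adjusted p = 0.926). Ndufb3, an accessory subunit of the membrane arm, was at -0.18 and -0.46 for pair 193, 0.62 for 194, 1.49 and 0.96 for 197, 1.08 and 0.71 for 199, and 0.22 and -0.27 for 220, with a mean of 0.48 ± 0.64 (limma adjusted p = 0.926, n = 5) that was 0.29 with Cy5 arrays reversed. Ndufb5, of the same arm, had one sign on the 2 arrays of all 4 pairs that had them, at -0.68 and -0.56 for pair 193, 0.64 for 194, 0.96 and 0.95 for 197, 0.95 and 0.76 for 199, and 0.071 and 0.29 for 220.

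The genes of the NADH-oxidising end followed the same order with different sizes. Ndufv1, which carries the flavin that takes the electrons, was at -0.25, 0.018, 0.48, 0.31 and 0.036 in pairs 193, 194, 197, 199 and 220, and its partner Ndufv2, an iron-sulphur protein, at -0.79, 0.66, 1.12, 1.09 and -0.084. Core subunits of the connecting arm, Ndufs3 and Ndufs8, were at -0.40, 0.51, 0.99, 0.71 and -0.075 and at -0.78, 0.60, 0.13, 1.20 and -0.20 in the same pairs. Ndufs8 differed from most in pair 197, where its 2 arrays were at 0.26 and -0.0081. The 2 probes of Ndufb9, a membrane arm subunit, agreed in sign in pairs 193, 197 and 199 and had opposite signs in pairs 194 and 220, and the 2 probes of Ndufc2 had the same sign in all 5.

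Several genes of the Nduf group did not follow this order. Ndufa4, named for complex I but now known as a subunit of complex IV, was at 0.21 and 0.15 for pair 193, 0.066 for 194, -0.56 and -0.35 for 197, -0.73 and 0.87 for 199, and 0.19 and 0.29 for 220. Its mean was 0.019 ± 0.28 (n = 5), its arrays in pair 199 had opposite signs, and it was negative in pair 197, where 17 of the 19 genes were positive. Its relative Ndufa4l2, a gene known to be induced in low oxygen, was at 0.21, 0.13, 0.40, -0.51 and 0.0035 in the 5 pairs, with 0.16 and -1.19 on the arrays of pair 199. Ndufc1, a small membrane arm subunit, was at 0.17, -0.20, 1.02, -0.30 and -0.40, and was thus positive in pair 197 but not in pair 199. The assembly factors Ndufaf2, Ndufaf4 and Ndufaf5, which help build the complex and are not part of it, were at 0.025 ± 0.31, 0.066 ± 0.25 and 0.021 ± 0.16 over the 5 pairs. Across pairs their medians were 0.18, -0.12, -0.060, 0.083 and -0.14, and 1 of the 3 was past 0.5 in any pair, Ndufaf2 in pair 193.

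Complex II, succinate dehydrogenase, is the one enzyme shared by the chain and the citrate cycle, and its 4 genes shared a sign in pairs 193, 194, 197 and 199. Their medians were -0.63, 0.41, 0.79, 1.06 and -0.16 in the 5 pairs. All 4 were counted negative in pair 193 and positive in pair 199, and 3 were counted positive in pair 197. Sdha, the flavoprotein that oxidises succinate and the gene with the NRF1 matches above, was at -0.71 and -0.70 for pair 193, 0.71 for 194, 1.52 and 1.20 for 197, 1.54 and 1.50 for 199, and 0.089 and -0.23 for 220. The 2 arrays agreed within each pair except pair 220, and the mean was 0.56 ± 0.95 (n = 5, limma adjusted p = 0.926). Sdhb, the iron-sulphur subunit, was at -0.71, 0.46, 0.52, 0.82 and -0.44 in the 5 pairs, and the membrane anchors Sdhc and Sdhd at -0.56, 0.31, 0.051, 0.72 and -0.25 and at -0.54, 0.35, 1.05, 1.31 and 0.074. Sdhc thus lay near 0 in pair 197, with -0.14 and 0.24 on its arrays, while Sdhd did not.

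Complex III, cytochrome c reductase, had 8 genes with medians of -0.61, 0.29, 0.40, 0.87 and -0.067. All 8 were negative in pair 193 and positive in pair 199, with 5 and 6 counted past 0.5, and 3 were counted in pair 197. The core protein gene Uqcrc2, measured by 2 probes, averaged -0.73 and -0.45 for pair 193, 0.32 for 194, 1.51 and 1.60 for 197, 1.14 and 1.70 for 199, and 0.15 and 0.17 for 220. Both arrays had 1 sign in each of the 4 exchanged pairs, and the mean was 0.57 ± 0.90 (n = 5, limma adjusted p = 0.926). The other core protein gene Uqcrc1 was at -0.36 and -0.95 for pair 193, 0.49 for 194, 1.32 and 0.44 for 197, 1.67 and 0.46 for 199, and 0.30 and -0.54 for 220, its Cy3 array (DMO on Cy3) being the higher one in all 4 exchanged pairs. Uqcrfs1, the Rieske iron-sulphur protein that passes electrons to cytochrome c1, was at -0.83, -0.017, 1.03, 1.50 and -0.25 in the 5 pairs, a range of 2.34 that was 0.15 with Cy5 arrays reversed.

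The small subunits of complex III were less uniform. The hinge protein gene Uqcrh was at -0.63, 0.41, 0.33, 0.91 and 0.078, Uqcr10 at -0.78, 0.26, 0.078, 0.84 and -0.082 and Uqcr11 at -0.21, 0.44, 0.42, 0.84 and 0.15 in the 5 pairs. Uqcrb and Uqcrq, small accessory subunits, reached at most 0.16 and 0.38, with values of -0.22, -0.21, -0.11, 0.16 and -0.089 and of -0.32, -0.27, 0.38, 0.13 and -0.052. Their means were negative as first read (-0.094 ± 0.15 and -0.027 ± 0.29, n = 5). Cyc1, which encodes cytochrome c1, had no probe named for it here.

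Complex IV, cytochrome c oxidase, had isoforms with unlike values. The 12 genes had medians of -0.53, 0.091, 0.53, 0.95 and -0.061, with 6 counted negative in pair 193, and 3, 6 and 8 positive in pairs 194, 197 and 199. Cox7b, a small nuclear subunit, was at -1.44 and -1.30 for pair 193, -0.23 for 194, 1.69 and 2.06 for 197, 1.14 and 1.80 for 199, and 0.40 and 0.22 for 220. Its range over the pairs was 3.25, and 0.42 with Cy5 arrays reversed. Cox5a, which lies on the matrix side, was at -0.99 and -1.04 for pair 193, -0.062 for 194, 1.62 and 1.63 for 197, 1.21 and 1.84 for 199, and -0.31 and -0.21 for 220, and Cox6c at -0.46 and -0.69 for pair 193, 0.18 for 194, 1.34 and 0.95 for 197, 1.01 and 1.17 for 199, and 0.58 and 0.035 for 220. Neither passed the test (means 0.36 ± 1.16 and 0.43 ± 0.71, n = 5, limma adjusted p = 0.94 and 0.926).

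Cox4i1, the common form of subunit 4, was at -0.25 and -0.73 for pair 193, 0.58 for 194, 1.83 and 1.51 for 197, 1.51 and 1.11 for 199, and 0.41 and -0.25 for 220, with a mean of 0.63 ± 0.88 (n = 5, limma adjusted p = 0.926) that was 0.30 with Cy5 arrays reversed. Cox4i2, the form known from lung and from low oxygen, was at 0.21 and -0.20 for pair 193, -0.33 for 194, 0.22 and 0.18 for 197, 0.10 and -0.079 for 199, and -0.052 and -0.48 for 220. It was near 0 where Cox4i1 was strongly positive. Cox7a2, the common form of subunit 7a, was at -1.11, 0.62, 1.26, 1.05 and -0.15 in the 5 pairs, while its relative Cox7a2l, which joins complexes III and IV into supercomplexes, was at 0.073, -0.11, 0.013, -0.42 and 0.48 (means 0.33 ± 0.97 and 0.0046 ± 0.33, n = 5). Cox6a2 and Cox6b2, whose promoters are shown above, stayed within 0.30 of 0 in every pair, at 0.11, -0.0033, 0.30, -0.092 and 0.050 and at 0.057, -0.028, 0.15, 0.057 and -0.056. Their partners Cox6a1 and Cox6b1, and Cox7a1, had no probe named for them here.

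Cox8a, the common form of subunit 8, was at -0.79, 0.62, 0.59, 1.09 and -0.067 in the 5 pairs (mean 0.29 ± 0.73, n = 5). Cox8b, the form of muscle and brown fat in rodents, is not one of the 61 genes and was kept as a brown fat marker, at -1.26 and -1.76 for pair 193, -2.16 for 194, 3.33 and 3.14 for 197, 2.83 and 2.03 for 199, and 0.48 and -0.29 for 220. The 2 forms had the same sign in pairs 193, 197 and 199 and opposite signs in pair 194, where Cox8a was at 0.62 and Cox8b at -2.16.

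**Figure D4:**
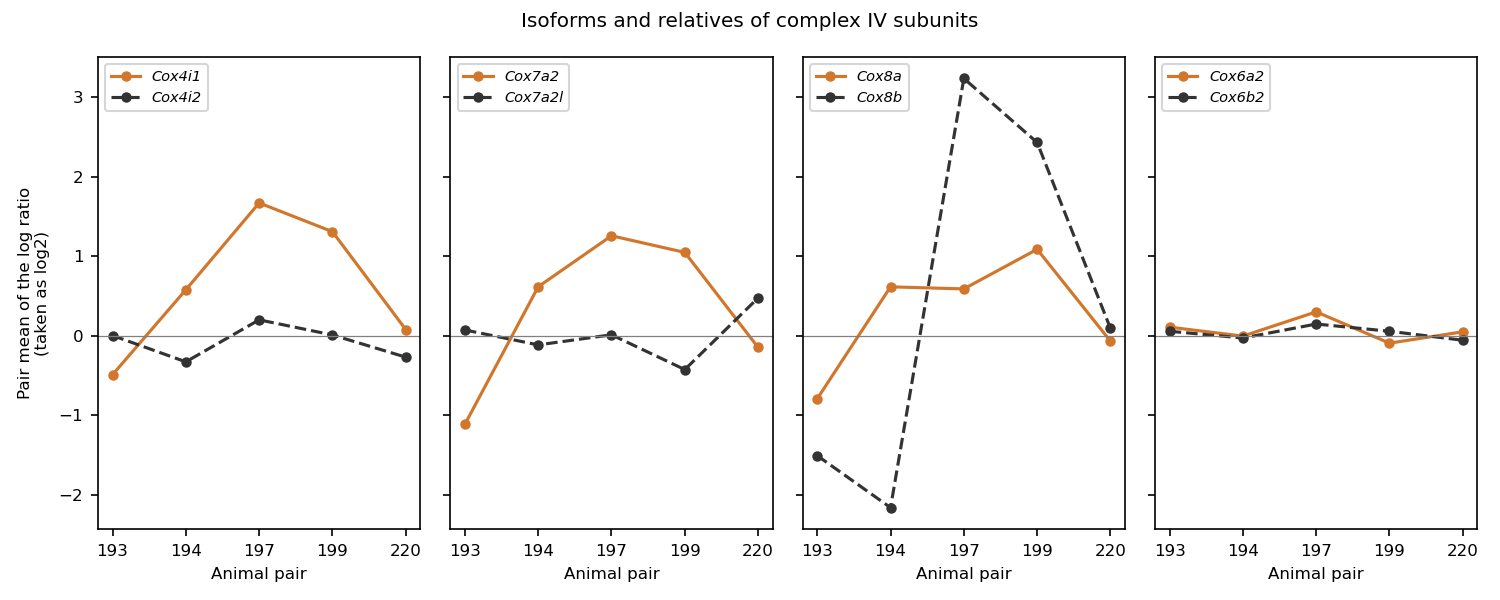
Pair means of the log ratio (taken as log2) of complex IV isoforms and relatives in the 5 animal pairs, each panel with a pair of genes drawn as a solid and a dashed line that only join values of 1 gene. Cox4i1 and Cox7a2 reach 1.67 and 1.26 in pair 197 while Cox4i2 and Cox7a2l are at 0.20 and 0.013, and in pair 194 Cox8a is positive and Cox8b negative.

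ATP synthase had 15 genes with medians of -0.43, 0.49, 0.39, 0.87 and -0.018. It was the complex with the highest median in pair 194, which had 1 array, with the DMO animal on Cy3. With the DMO animal on Cy3 and on Cy5, its medians were -0.25 and -0.48 in pair 193 and 0.60 and 0.17 in 197. They were 0.63 and 0.72 in pair 199 and 0.22 and -0.20 in 220. The rank in pair 194 and the dye orientation cannot be told apart. Of the 15, 6, 6 and 10 were counted positive in pairs 194, 197 and 199, and 6 and 2 negative in pairs 193 and 220. In the catalytic head, the alpha subunit gene Atp5f1a was at -0.58 and -0.91 for pair 193, 0.63 for 194, 1.46 and 1.57 for 197, 1.23 and 1.10 for 199, and -0.52 and -0.20 for 220. Its 2 arrays had 1 sign in each exchanged pair, and its mean was 0.44 ± 0.97 (n = 5, limma adjusted p = 0.926). The gene of the gamma subunit, the rotating shaft, Atp5f1c, averaged -0.50, 0.54, 0.63, 0.997 and 0.20 over its 2 probes in the 5 pairs. At the foot of the shaft, Atp5f1d (delta) was at -0.35, 0.69, 0.17, 1.14 and -0.28 and Atp5f1e (epsilon) at -0.21, 0.23, -0.92, 0.24 and -0.84. The arrays of Atp5f1d were at 0 and -0.69 for pair 193, 0.65 and -0.31 for 197, and 1.55 and 0.72 for 199. Those of pair 220 were at 0.23 and -0.78, so its Cy3 array was the higher one in each exchanged pair. The mean of Atp5f1e was -0.30 ± 0.56 (n = 5, limma adjusted p = 0.926), and 0.26 with Cy5 arrays reversed, with -0.67 and -1.17 on the arrays of pair 197, where the head gene Atp5f1a was at its most positive.

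In the peripheral stalk, which holds the head still, Atp5pb was at -0.43, 0.57, 0.78, 0.94 and 0.12 in the 5 pairs, Atp5pd at -0.84, 0.51, 0.65, 0.89 and -0.37, Atp5po at -0.90, 0.045, 0.023, 0.82 and -0.66 and Atp5pf at -0.12, 0.073, -0.077, 0.47 and 0.088. Atp5po was negative in pairs 193 and 220 and near 0 in pair 197, whereas Atp5pb was positive in 4 of 5 pairs. The 2 arrays of Atp5pf had opposite signs in pairs 193, 197 and 220. Of the membrane subunits, Atp5mg was at -1.08 and -1.16 for pair 193, 0.17 for 194, 1.34 and 1.27 for 197, 1.13 and 1.39 for 199, and 0.21 and 0.13 for 220, Atp5mk at -1.11, -0.058, 1.06, 0.60 and -0.018 and Atp5me at -0.44, 0.87, 0.49, 0.87 and 0.036. The c ring that turns in the membrane is encoded by Atp5mc1, Atp5mc2 and Atp5mc3, whose mature proteins are known to be the same. These 3 genes were at 0.039, 0.49, -0.15, 0.24 and -0.20, at 0.22, 0.31, 0.39, 0.27 and -0.050 and at -0.31, 0.49, -0.16, 1.01 and 0.34 in the 5 pairs, so that Atp5mc3 was at 1.01 in pair 199 where the others were at 0.24 and 0.27. The 2 arrays of Atp5mc1 had opposite signs in pairs 193, 197 and 220. The inhibitor gene Atp5if1, whose protein stops the enzyme from running backwards, was at 0.097 and 0.27 for pair 193, 0.46 for 194, -0.081 and -0.090 for 197, 0.075 and 0.091 for 199, and 0.22 and 0.21 for 220, with a mean of 0.17 ± 0.20 (n = 5).

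How closely each gene followed the rest was described by its correlation, over the 9 arrays, with the median of the other subunit genes. Arrays of 1 pair share their animals, so no p is given. The correlation was over 0.8 for 38 of the 58 subunit genes and under 0.5 for 14, with a median of 0.88. It was highest for Sdha (0.99), Cox8a (0.98), Atp5pb (0.98) and Cox5b (0.98). It was below 0 for Cox7a2l (-0.54), Atp5if1 (-0.42), Ndufa4 (-0.34), Ndufa4l2 (-0.24) and Cox6a2 (-0.025). Among subunit genes with a promoter window, 14 of the 35 with a correlation over 0.8 held the GABP motif and 2 of the other 16. For the NRF1 motif it was 9 of 35 and 2 of 16, for YY1 7 of 35 and 2 of 16, and for ERR 6 of 35 and 3 of 16. These counts were split by a value of the same arrays and are given without a test.

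Other genes of oxidative metabolism followed the subunits in part. The citrate cycle and pyruvate dehydrogenase list had 13 measured genes with medians of -0.41, 0.078, 0.42, 0.72 and 0.085 in the 5 pairs, and 9 of 13 were counted positive in pair 199 and 4 negative in pair 193. Suclg1, a subunit of succinyl-CoA ligase, was at -0.45, 0.65, 1.14, 1.29 and 0.18 and Idh3a, of isocitrate dehydrogenase, at -0.36, 0.16, 1.25, 1.17 and 0.26. Citrate synthase (Cs), which starts the cycle, was at -0.64, -0.22, 1.66, 1.41 and -0.26. Cytochrome c (Cycs), which links complexes III and IV, was at -1.45 and -0.999 for pair 193, -0.19 for 194, 2.69 and 3.01 for 197, 1.70 and 2.56 for 199, and 0.036 and -0.015 for 220, and Etfa, which feeds electrons from fatty acid oxidation to ubiquinone, at -0.69, -0.17, 2.73, 2.39 and 0.26 in the 5 pairs. Cycs was further from 0 than the subunit median in pairs 193, 197 and 199 but on the other side of 0 in pair 194. The 14 genes of that list, cytochrome c and ubiquinone, had medians of -0.20, -0.13, 0.65, 0.71 and 0.023. Carriers and pores of the mitochondrial membranes, 20 genes, had medians of -0.18, 0.17, 0.35, 0.58 and 0.072, with the ADP/ATP carrier gene Slc25a5 at -0.73, 0.62, 1.14, 1.07 and 0.45 and the oxoglutarate carrier gene Slc25a11 at -0.0025, 0.49, 0.99, 0.92 and 0.066.

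Genes that build or control the chain stayed nearer to 0. Assembly factors outside the set, 21 genes, had medians of -0.024, 0.029, 0.026, 0.13 and -0.012, with 4 of 21 counted positive in pair 199 (5.31% of all features). Among them Sdhaf1, which helps insert the iron-sulphur clusters of complex II, was at -0.35, 0.29, 0.71, 1.45 and -0.37 and Cox15, which takes part in making the haem of complex IV, at -0.029, 0.13, 0.52, 0.63 and 0.43. The 11 measured regulators had medians of 0.064, 0.042, 0.072, -0.090 and 0.045, and none was counted in any pair. Of all features, 1.19% to 9.9% were counted on a side of a pair, so among 11 genes such a count sets them little apart. Gabpa, the DNA-binding subunit of GABP, was at 0.048, 0.042, 0.19, 0.020 and 0.21, Polg, the polymerase of mitochondrial DNA, at 0.11, -0.19, 0.41, -0.090 and 0.13, the coactivator Ppargc1a at 0.11, -0.31, 0.023, -0.20 and 0.21 and Tfam, which packs and transcribes mitochondrial DNA, at -0.22, 0.16, 0.062, 0.16 and -0.19. Glycolysis genes, 14 measured, had medians of -0.29, 0.50, 0.14, 0.64 and -0.059, and thus were at 0.50 in pair 194 where the citrate cycle was at 0.078. Ldha, which turns pyruvate to lactate, was at -0.46, 1.92, 1.34, 1.49 and -0.18 and the enolase gene Eno1 at -0.57, 0.62, 0.92, 1.31 and -0.085. None of the genes in these 6 lists passed in limma over all features.

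The median of the fat cell markers had the sign of the subunit median in all 5 pairs, both being near 0 in pair 220. The median of the brown fat markers had it in pairs 193, 197 and 199 and not in pairs 194 and 220. The 12 measured adipocyte markers, genes of fat cells, had medians of -0.12, 0.19, 1.90, 1.97 and -0.046 in the 5 pairs, and 11 and 11 of 12 were counted positive in pairs 197 and 199. They ranged from 0.081 to 5.28 in pair 197 and from -0.098 to 3.28 in pair 199. In pair 193 they ranged from -0.61 to 0.50, with 1 counted negative, where 29 of 58 subunit genes were. The largest means of the list were those of Pck1, a gluconeogenic enzyme that fat also uses to make glycerol, at -0.11, -0.76, 5.28, 3.28 and 0.020, and adipsin (Cfd) at -0.20, 1.06, 2.74, 2.83 and 0.057.

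The 9 measured brown fat markers had medians of -0.073, -0.58, 3.20, 2.33 and 0.19. Ucp1, the uncoupling protein that lets brown fat make heat, was at -0.13 and -0.73 for pair 193, -2.19 for 194, 5.05 and 4.62 for 197, 2.66 and 2.83 for 199, and -0.049 and 0.069 for 220. Cidea, a lipid droplet protein, was at -0.53, -0.98, 3.49, 3.24 and 0.21 and the adrenergic receptor gene Adrb3 at 0.39, -0.55, 3.36, 2.96 and 0.31 in the 5 pairs. In pair 194 6 of 9 were counted negative, with a range of -2.19 to 0.027, while 15 of 58 subunit genes were counted positive and none negative. In pair 193 2 of 9 were counted negative, Cidea and Cox8b, with a range of -1.51 to 0.39. In pairs 197 and 199 6 and 6 of 9 were counted positive, with ranges of -0.043 to 4.84 and of -0.22 to 3.24. Their part in the subunit values was not tested.

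The 7 measured smooth muscle markers had medians of -0.75, 0.020, -0.90, 0.012 and -0.018. They were thus lowest in pair 197 and next in pair 193, where the subunit medians had opposite signs, and were at 0.012 in pair 199, where the subunit median was highest. Itga8, an integrin of smooth muscle, was at -1.58, 0.59, -2.25, -0.18 and 0.14 and the myosin light chain gene Myl9 at -0.91, 0.19, -1.92, 0.14 and -0.14. Of the 7, 6 were negative in pair 193 and 6 in pair 197, with ranges of -1.58 to 0.73 and of -2.32 to 0.18. In pairs 194, 199 and 220 they had mixed signs, with ranges of -1.34 to 1.25, of -0.18 to 0.94 and of -1.68 to 0.26. Lmod1, a leiomodin, did not follow the median, at 0.73, -1.34, -0.19, 0.50 and -1.68. Heart and skeletal muscle markers, 10 genes, had medians of 0.00010, -0.15, 0.12, -0.18 and 0.088, with Ckm, the muscle creatine kinase, at 0.089, -0.18, -2.21, -0.17 and 0.23 and the cardiac actin gene Actc1 at 0.34, -0.12, -1.73, -0.79 and 0.65. In pair 197 7 of the 10 were positive and 3 were counted negative (9.9% of all features), with a range of -2.21 to 0.30. The 7 endothelial markers had medians of 0.19, 0.22, 0.43, -0.13 and 0.011, and the surface protein gene Emcn was at 0.77, 0.63, 0.98, -0.42 and 0.13 and the VEGF receptor gene Kdr at 0.69, 0.24, 0.90, 0.069 and 0.082. The 9 leukocyte markers had medians of 0.094, -0.21, 0.051, -0.079 and 0.064, and the lysozyme gene Lyz2 was at 1.18, -0.96, -0.83, -1.50 and -1.29 and Cd74, the invariant chain of antigen presentation, at 0.40, -0.21, 0.49, -0.079 and 0.16. Lyz2 had the sign of most of the 9 in pairs 193, 194 and 199. In pairs 197 and 220 6 of the 9 were positive, where Lyz2 was negative. Levels were not measured, so none of these values says how much of a cell type was in the tissue, and the part of these cells in the subunit values was not tested.

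**Figure D5:**
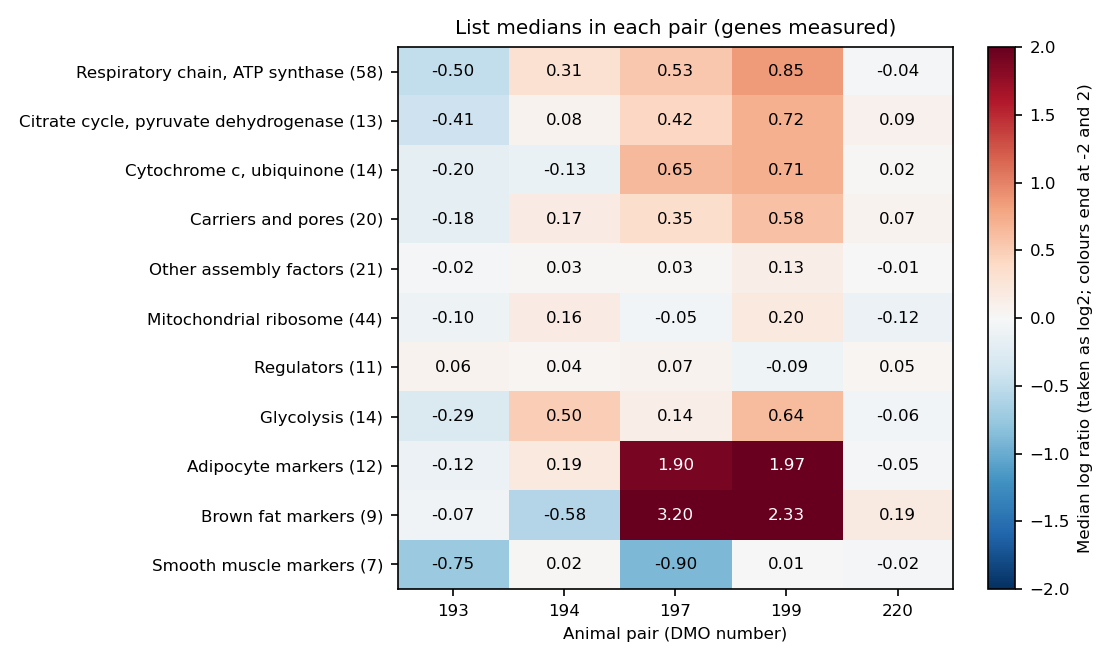
Median pair mean of the log ratio (taken as log2; the number in each cell) of 11 gene lists, in rows with the number of genes measured, in the 5 animal pairs, in columns. Subunits, citrate cycle and electron carriers are negative in pair 193 and positive in pairs 197 and 199. So are carriers and pores, other assembly factors, glycolysis, adipocyte markers and brown fat markers, some of them near 0. The mitochondrial ribosome, regulators and smooth muscle markers do not have these signs, and regulators stay near 0. In pair 194 the subunits are at 0.31 where brown fat markers are at -0.58.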

How the data were processed

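Total RNA of thoracic aortas was hybridised to two-colour Agilent arrays, per the labels. For each array the authors deposited a log ratio of every feature, entered here as log2. Its base and direction, and how spots were corrected and normalized, are not stated in what was used here. Signals and background flags were not used, so dim and control features were kept. Precision is limited by how many arrays there are. Of 22575 features, 12750 had 1 gene symbol in the platform annotation, 5 several and 9820 none. The array is a grid of 215 by 105 positions. The annotation's numbers were read as running up the columns of 215 from the last position, and the deposited numbers as running along the rows of 105. All 61 members' gene IDs gave the same symbol in RefSeq's GRCr8 table.

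Probes of a symbol were averaged, then the arrays of a pair. limma 3.58.1 (R 4.3.3) tested the 5 pair values of 19478 features against 0 with Benjamini-Hochberg adjustment, and was tested on simulated data. Genes were named by complex: the 3 largest means in size, the nearest to 0, core subunits, isoforms and assembly factors; other members and Cs, Ppargc1a, Tfam, Ucp1 and Cox8b were added for their role, after values were seen. Members and lists were chosen with earlier results of these data known. The list of mitochondrial ribosomal proteins was added after seeing the data. Promoters are RefSeq's. Arrays of 1 number hold the same 2 extracts, so the pairing comes from the labels. The alternatives were another sign, centring, scaling, one dye orientation, a replicate block, separate probes, named genes alone and pairs left out. Figures used matplotlib 3.10.9.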

Additional observations from a re-analysis of the deposited data

Results flagged for a closer look

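Of the 61 genes, 2 had 1 pair far from the other 4, by a rule that chance meets in about 1 of 20 groups. Ndufa4 was at -0.45 in pair 197, against 0.066 to 0.24 in the others, and both arrays of pair 197 were negative (-0.56 and -0.35). Ndufaf2 was at 0.57 in pair 193, against -0.17 to -0.048 in the others, and the arrays of pair 193 gave 0.12 and 1.01.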

How the results depend on the processing

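No alternative brought a member past the adjusted threshold in limma, and none brought any feature past it. The lowest adjusted p of a subunit feature was 0.117, with Cy5 arrays reversed in sign, and 0.417 with the Cy3 arrays alone. With all 9 arrays and the animal pair as a replicate block, the median of the subunits was 0.24 and their lowest adjusted p 0.652, and this changed no call. Below an unadjusted p of 0.05 were 3131 features (16.1%) and 16 of 58 subunits with the sign turned, 2174 features (11.2%) and 12 of 58 subunits with Cy3 arrays alone, 1393 features (7.15%) and 7 of 58 subunits with the block, 1244 features (6.39%) and 28 of 58 subunits without pair 193 and 929 features (4.77%) and 1 of 58 subunits as reported. With the sign turned, the complex medians were 0.054, 0.14, -0.0042, 0.11 and 0.17 for complexes I to V, and -0.079 for the assembly factors. Scaled arrays gave 0.16 for all subunits and centred arrays 0.24.

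Means of the 61 genes changed sign as follows, each past no threshold, and the cause was not tested. With Cy5 arrays reversed they were 0.26 for Atp5f1e, -0.086 for Atp5mk, -0.041 for Atp5pd, 0.042 for Cox4i2, -0.080 for Cox5a, -0.11 for Cox7a2l, -0.15 for Cox7b, -0.17 for Ndufa4, -0.030 for Ndufa5, -0.15 for Ndufa7, -0.11 for Ndufa8, -0.079 for Ndufaf2, -0.080 for Ndufaf4, -0.021 for Ndufaf5, -0.15 for Ndufc1, -0.024 for Ndufc2, -0.078 for Ndufv2, -0.12 for Ndufv3, -0.051 for Uqcr10, -0.032 for Uqcrc2, -0.028 for Uqcrfs1 and 0.055 for Uqcrq. With Cy3 arrays alone they were 0.031 for Cox4i2, -0.083 for Cox7a2l, -0.17 for Ndufa4, -0.038 for Ndufa7, -0.0089 for Ndufa8, -0.021 for Ndufaf2, -0.0054 for Ndufaf5, -0.050 for Ndufc1, -0.041 for Uqcr10 and 0.082 for Uqcrq. With scaled arrays they were -0.057 for Atp5mk, -0.023 for Cox5b, -0.032 for Ndufa5, -0.028 for Sdhc and -0.051 for Uqcr10. Leaving out 1 pair gave -0.018 to 0.16 for Atp5mc1, -0.15 to 0.40 for Atp5mk, -0.012 to 0.42 for Atp5pd, -0.0078 to 0.14 for Atp5pf, -0.38 to 0.056 for Atp5po, -0.076 to 0.34 for Cox5b, -0.11 to 0.11 for Cox7a2l, -0.036 to 0.14 for Ndufa4, -0.042 to 0.19 for Ndufa4l2, -0.070 to 0.29 for Ndufa5, -0.048 to 0.15 for Ndufa7, -0.11 to 0.075 for Ndufaf2, -0.021 to 0.12 for Ndufaf4, -0.019 to 0.087 for Ndufaf5, -0.18 to 0.17 for Ndufc1, -0.065 to 0.43 for Ndufs8, -0.041 to 0.34 for Sdhb, -0.11 to 0.21 for Sdhc, -0.13 to 0.27 for Uqcr10, -0.018 to 0.57 for Uqcrfs1 and -0.13 to 0.046 for Uqcrq.

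Counts per pair moved with the size set for them. At a size of 1, pair 193 had 5 (0.359%) negative (the share of all features follows each count), pair 194 0 (1.49%) positive, pair 197 17 (0.94%) positive and 0 (3.28%) negative, pair 199 20 (1.12%) positive and pair 220 0 (0.252%) negative. At a size of 0.3, pair 194 had 32 (15.5%) positive and 1 (16.6%) negative, pair 197 2 (15.5%) negative, pair 199 1 (9.05%) negative and pair 220 4 (5.05%) positive and 6 (8.7%) negative. Centred arrays gave 2 negative in pair 197, and pair means alone 1 (4.05%) negative in pair 199. Without signals, what dim spots limit is not known.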

Other observations

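Genes of the mitochondrial ribosome, which makes the subunits encoded in mitochondrial DNA, were a list added after seeing the data. The 44 measured genes had medians of -0.098, 0.16, -0.050, 0.20 and -0.12 in pairs 193, 194, 197, 199 and 220. In pair 197 4 were counted positive (4.6% of all features) and 7 negative (9.9%), where 30 of 58 subunit genes were counted positive. In pair 193 none was counted on either side, where 29 subunit genes were counted negative. Of all features, 1.49% were counted positive and 1.8% negative in pair 193, so for 44 genes this was close to the background. Mrpl48 and Mrps5 had the largest means in size, at -0.32 ± 0.37 and -0.31 ± 0.18 (SD, n = 5 pairs). Mrps18a was at 0.057 and -0.26 for pair 193, 0.067 for 194, -0.065 and 0.063 for 197, 0.16 and 2.95 for 199, and -0.74 and -0.28 for 220, and it was named here for its value in pair 199.

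Pyruvate dehydrogenase E1 alpha (Pdha1), which admits carbohydrate carbon to the citrate cycle, was at -1.22 and -1.75 for pair 193, -0.14 for 194, -0.59 and 0.053 for 197, 0.50 and 0.97 for 199, and -0.93 and -0.31 for 220. It was the lowest gene of its list in pair 193 and, unlike citrate synthase, was negative in pair 197. It was chosen after its values were seen. The voltage-dependent channel gene Vdac2 stayed between -0.23 and -0.096 in the 5 pairs, whereas Vdac1 was at -0.29, 0.47, 0.66, 0.57 and -0.036 and Vdac3 at -0.084, 0.13, 0.55, 0.72 and 0.25.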
